A study of Mus musculus with 6 samples.

Results

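The genes described here set the balance between mineral-promoting and mineral-inhibiting activities around skeletal cells. They were the rows of the deposited count table whose gene symbol was Alpl, Enpp1, Mgp, Phospho1, Slc20a1, Slc20a2, Abcc6 or Nt5e, and all 8 were found among 26130 rows. Their levels were followed in skeletal stem cells of the mouse, which can give rise to cartilage, bone and stroma, sorted from the Achilles tendon-to-bone interface of C57BL/6 mice. The injured group (n = 3 libraries) had a partial injury of that interface, the sham control group (n = 2) a sham procedure, and the uninjured group is 1 library, all from day 7 after injury. The description field of the uninjured library calls it a sham, so injured libraries were set first against sham control and then against all 3 non-injured libraries joined. The age and sex of the mice, the surface markers of the sort and any pooling of animals are not stated. Nothing says that libraries came from separate animals, so the p-values describe spread among libraries that may be technical.

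Mineral in skeletal matrix is hydroxyapatite, a crystal of calcium and phosphate, and inorganic pyrophosphate is its small-molecule inhibitor. Enpp1 makes pyrophosphate outside the cell by cleaving nucleotide triphosphates, Nt5e converts the AMP left over to adenosine and phosphate, and Abcc6 is a transporter needed for normal plasma pyrophosphate. Alpl, tissue-nonspecific alkaline phosphatase, destroys pyrophosphate and so permits mineral to form, while Phospho1 frees phosphate inside matrix vesicles and Slc20a1 and Slc20a2 carry phosphate into cells. Mgp, matrix Gla protein, is a vitamin K-dependent inhibitor of calcification in cartilage and vessels. At the enthesis these activities meet, because tendon there passes through unmineralized and then mineralized fibrocartilage into bone.

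Libraries held between 37506188 and 51089267 counts, and levels are given as CPM, counts scaled to library size by the trimmed mean of M-values (TMM). Sham 1 and injured 1 stood apart from the other libraries. Ribosomal RNA genes took 15.0% and 14.7% of their counts, against 2.89% to 5.32% elsewhere, and 8 neutrophil markers summed to 10621 and 6642 CPM in them against 95.1 to 896 CPM elsewhere. Erythroid markers summed to 38786 CPM in sham 1 and 6079 CPM in injured 1, against 2.62 to 593 CPM elsewhere. Macrophage markers summed to 2750 and 4491 CPM in the pair, against 17.1 to 1144 CPM elsewhere. Of the genes of the skeletal stem cell surface, Itgav and Cd200 had counts in all 6 libraries. Of 5 genes selected against in such sorts (Ptprc, Tek, Thy1, Enpep and Eng), the sum was 297 CPM in sham 1 and 0.663 CPM in sham 2, with 3 of the 5 at 0 in sham 2. It was 97.6 CPM in the uninjured library and 18.2 to 121 CPM in the injured libraries. Endothelial markers summed to 1380 CPM in sham 1, 0.746 CPM in sham 2, 624 CPM in the uninjured library and 66.3 to 293 CPM in injured libraries.

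Of the 8 genes, Mgp was the only one for which every injured library lay below both sham control libraries, and none lay wholly above. Against sham control 5 of the 8 had a log2 fold change below 0 and 3 above 0, with a median of -0.42 beside 0.09 for all 16752 genes tested, of which 53.7% lay above 0. Against all non-injured libraries 2 of 7 lay above 0 (50.1% of all genes), with a median of -0.58. After adjustment edgeR's quasi-likelihood test called no member in either comparison, and no other gene (0%), while limma-voom called no member and 0.00597% and 0.0496% of all genes. One member, Mgp, had an unadjusted p under 0.05, where 4.64% of all genes tested did, and the same gene alone passed DESeq2's adjusted threshold, where 2.2% of all genes did. Groups did not overlap for 1 of 8 members, where 21% of all genes tested did not overlap, so that share was not above the background. All 8 passed the low-count filter in this comparison, Abcc6 through a single injured library, and 7 passed in the comparison with all non-injured libraries.

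**Figure D1:**
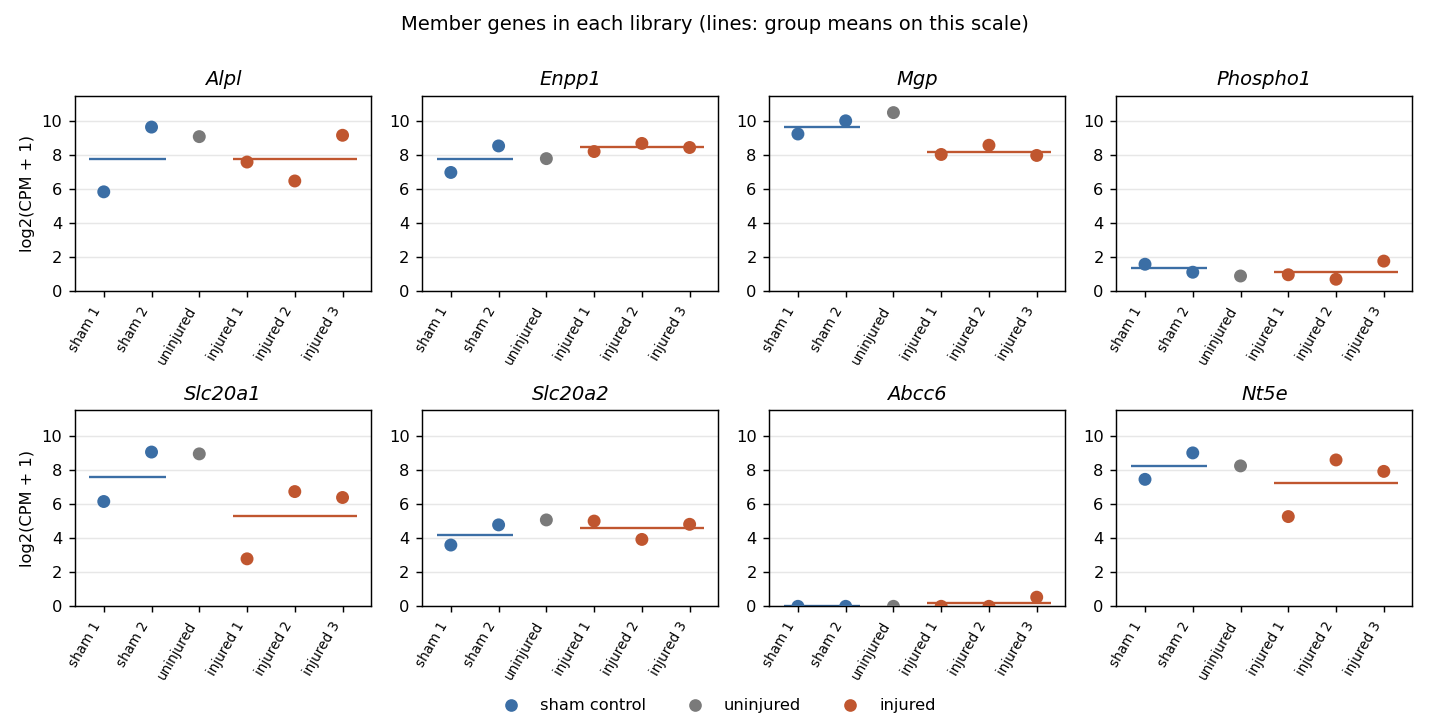
Level of each member gene in each of the 6 libraries, as log2(CPM + 1), with points coloured by group and lines at the group means of sham control (n = 2) and injured (n = 3). Mgp is the gene whose 3 injured points all lie below every other point, whereas Alpl and Slc20a1 spread widely within groups and Abcc6 lies at 0 in 5 libraries.

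Mgp had the highest mean level for its transcript length of the 8 genes. It stood at 606 and 1036 CPM in sham 1 and 2, at 1449 CPM in the uninjured library, and at 263, 383 and 252 CPM in injured 1, 2 and 3. The highest injured library was thus below the lowest non-injured one. The means were 821 ± 304 CPM (SD, n = 2) in sham control and 299 ± 72.5 CPM (SD, n = 3) in injured, a log2 fold change of -1.46 ± 0.45 (SE). Its 95% interval ran from -2.51 to -0.40, with an unadjusted p of 0.0141 and an adjusted p of 0.865 by edgeR and an adjusted p of 0.0251 by DESeq2. Against all non-injured libraries, which share the injured and the sham libraries with the first comparison, the log2 fold change was -1.79 ± 0.43 (SE, adjusted p = 0.452 by edgeR and 0.00112 by DESeq2). Groups in that comparison did not overlap for 16.3% of all 14110 genes tested, an unadjusted p under 0.05 was found for 7.43% and DESeq2 called 2.45%.

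The difference in Mgp was as large without the libraries that stood apart. With sham 1 and injured 1 both left out the log2 fold change was -1.71 against sham control and -1.97 against all non-injured libraries. Without sham 2 these were -1.02, with an unadjusted p of 0.0919 by edgeR, and -1.78, with an unadjusted p of 0.0102. Markers of 2 other cell populations were also lower in every injured library. The 8 tenocyte markers, none at 0 in any library, summed to 16642 and 38431 CPM in sham control, 32170 CPM in the uninjured library and 8698 to 14895 CPM in injured libraries. Within that list Dcn, its most abundant gene, was below all non-injured libraries in every injured one, whereas Scx, the defining transcription factor of tendon, was above them (8.92 to 41.6 CPM against 56.8 to 89.3 CPM). The 8 Schwann cell markers summed to 846 to 5158 CPM in sham control and 298 to 582 CPM in injured libraries. Smooth muscle and pericyte markers, another population in which Mgp is expressed, overlapped between the groups in their sum (791 to 1782 CPM in sham control and 709 to 1369 CPM in injured), in which Cspg4 reached 541 CPM in sham 2 and 1014 CPM in injured 3. Myh11, the defining myosin of smooth muscle, was lower in every injured library, at 199 and 40.7 CPM in sham control, 299 CPM in the uninjured library and 7.54, 6.51 and 31.1 CPM in injured 1, 2 and 3. The part of these populations in the Mgp result was not tested, and in bulk RNA fewer cells of a type and less RNA per cell cannot be told apart.

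Promoter windows are shown for 3 members. Slc20a1 and Alpl had the widest ranges between libraries, and Enpp1 a narrow one. The sequences were taken from RefSeq (GRCm38.p6), where 5 of the 8 members had an entry, and run 5′ to 3′ on the gene's strand from 250 bases before to 50 bases after the start. Capitals mark matches, on either strand, to the GC box (GGGCGG), the TATA box (TATAAA), the RUNX motif (TGTGGT) and the AP-1 motif (TGANTCA). The windows are chr2:129198523-129198822 on the plus strand for Slc20a1, chr4:137796335-137796634 on the minus strand for the upstream start of Alpl, and chr10:24712110-24712409 on the minus strand for Enpp1.
Slc20a1: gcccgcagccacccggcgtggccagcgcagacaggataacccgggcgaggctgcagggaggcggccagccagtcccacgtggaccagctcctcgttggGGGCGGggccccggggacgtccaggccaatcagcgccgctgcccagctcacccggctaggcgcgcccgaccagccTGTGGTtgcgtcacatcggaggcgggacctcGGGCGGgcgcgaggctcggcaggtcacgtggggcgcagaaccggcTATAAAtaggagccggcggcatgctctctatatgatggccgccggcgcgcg
Alpl: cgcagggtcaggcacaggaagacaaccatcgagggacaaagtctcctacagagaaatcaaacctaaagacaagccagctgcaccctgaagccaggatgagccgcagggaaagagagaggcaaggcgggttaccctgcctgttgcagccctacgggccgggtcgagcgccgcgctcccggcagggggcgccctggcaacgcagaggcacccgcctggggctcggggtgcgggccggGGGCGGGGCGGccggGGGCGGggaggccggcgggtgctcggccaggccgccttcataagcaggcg
Enpp1: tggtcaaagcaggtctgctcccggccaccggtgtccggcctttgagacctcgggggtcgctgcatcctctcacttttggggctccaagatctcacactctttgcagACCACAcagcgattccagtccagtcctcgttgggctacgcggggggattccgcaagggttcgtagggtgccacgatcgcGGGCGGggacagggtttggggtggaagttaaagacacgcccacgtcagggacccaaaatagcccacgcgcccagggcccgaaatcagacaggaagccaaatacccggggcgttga
The Slc20a1 window held 2 GC boxes, 1 TATA box and 1 RUNX match, the Alpl window 3 GC boxes, a pair of which overlap, and the Enpp1 window 1 GC box and 1 RUNX match. None of the 3 held an AP-1 match. Of 32851 windows of this length in the table, 35.7% held a GC box, 13.6% a TATA box, 16.8% a RUNX match and 7.81% an AP-1 match. These matches describe the letters of the windows, and no measurement of factor binding was part of these data.

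The phosphate carrier Slc20a1, also called PiT-1, varied more between libraries than any other member. Its level was 70.2 and 532 CPM in sham 1 and 2, 494 CPM in the uninjured library, and 5.91, 106 and 82.8 CPM in injured 1, 2 and 3, a range of 90.0-fold. All injured libraries were below sham 2 and the uninjured library, but injured 2 and 3 lay above sham 1, so the groups overlapped. The log2 fold change was -2.22 ± 1.18 (SE) against sham control (95% interval -5.01 to 0.58, edgeR unadjusted p = 0.103, adjusted p = 0.865) and -2.50 ± 1.09 (SE) against all non-injured libraries (unadjusted p = 0.0547, adjusted p = 0.691). With sham 1 and injured 1 both left out it was -2.50 against sham control with an unadjusted p of 0.00136 (adjusted p = 0.152), from 1 sham, 1 uninjured and 2 injured libraries, where each lone library was assumed to vary like the others. Without sham 2 the log2 fold change was -0.11 against sham control, which was then sham 1 alone, and -2.12 against all non-injured libraries, which kept the high uninjured library. Without sham 1 these were -3.04 and -2.98.

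Slc20a2 (PiT-2), the second carrier of the family, did not follow Slc20a1. It stood at 11.1 and 26.5 CPM in sham control, 32.6 CPM in the uninjured library, and 31.1, 14.2 and 27.1 CPM in injured 1, 2 and 3, with overlapping groups. Its log2 fold change was 0.36 ± 0.64 (SE) against sham control (95% interval -1.16 to 1.89). Against all non-injured libraries it was 0.04 ± 0.56, a value whose sign turned with scaling by relative log expression (-0.00059). Within a library, where scaling between libraries cancels, the log2 ratio of Slc20a1 to Slc20a2 counts was 2.66 and 4.33 in sham control, 3.92 in the uninjured one, then -2.40, 2.89 and 1.61 in injured 1, 2 and 3. Injured 1 was the only library with fewer counts of Slc20a1 than of Slc20a2. The exons of Slc20a1 overlap those of 2 genes and the exons of Slc20a2 those of 1 gene on the opposite strand in GENCODE M21, and the sources do not say if counting was stranded.

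Alpl, the phosphatase that removes pyrophosphate, differed within groups by far more than between them. It stood at 56.7 and 803 CPM in sham 1 and 2, 544 CPM in the uninjured library, and 193, 88.7 and 575 CPM in injured 1, 2 and 3. The lowest and the highest of the 6 values were thus both sham control libraries. The log2 fold change was -0.59 ± 1.11 (SE) against sham control (95% interval -3.23 to 2.05, edgeR adjusted p = 0.980) and -0.72 ± 0.97 (SE) against all non-injured libraries. Without sham 2 the first of these turned to 2.33, and without sham 1 it was -1.49, so no direction can be given for Alpl. Phospho1, the matrix vesicle phosphatase, had 36 to 114 counts a library, or 0.644 to 2.44 CPM, and its extremes, injured 2 and injured 3, were in the same group. Its log2 fold change of -0.25 ± 1.87 (SE) against sham control had a 95% interval from -4.68 to 4.18, which includes differences of several fold in either direction. The exons of Phospho1 overlap those of 2 other genes, 1 of them on the same strand.

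Enpp1, the pyrophosphate-producing ectoenzyme, was among the least variable members. It stood at 126 and 372 CPM in sham 1 and 2, 222 CPM in the uninjured library, and 296, 412 and 349 CPM in injured 1, 2 and 3. Sham 2 lay inside the injured range and the groups overlapped. The log2 fold change was 0.50 ± 0.53 (SE) against sham control (95% interval -0.75 to 1.76, edgeR adjusted p = 0.922) and 0.55 ± 0.44 (SE) against all non-injured libraries (95% interval -0.47 to 1.57, adjusted p = 0.890). Without sham 1 the first value was -0.08, and without sham 2 it was 1.49 with an unadjusted p of 0.0295 by edgeR. With sham 2 left out Enpp1 was thus the 1 member with an unadjusted p under 0.05 against sham control, in place of Mgp. Opposing activities were also compared as a ratio within each library. The log2 ratio of Alpl to Enpp1 counts was -1.15 and 1.11 in sham 1 and 2, 1.3 in the uninjured one, then -0.62, -2.22 and 0.72 in injured 1, 2 and 3. These values overlapped, with means of -0.02 ± 1.60 (SD, n = 2) in sham control and -0.71 ± 1.47 (SD, n = 3) in injured.

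Nt5e, also known as CD73, which turns AMP into adenosine, stood at 174 and 514 CPM in sham 1 and 2, 302 CPM in the uninjured library, and 37.6, 386 and 242 CPM in injured 1, 2 and 3. Injured 1 was the lowest and the other injured libraries lay within the range of the non-injured ones. The log2 fold change was -0.64 ± 0.90 (SE) against sham control (95% interval -2.77 to 1.5) and -0.58 ± 0.78 (SE) against all non-injured libraries, and without injured 1 these were -0.13 and -0.08. The log2 ratio of Enpp1 to Nt5e counts, which catalyse successive steps of nucleotide breakdown, was -0.47, -0.46 and -0.45 in sham 1, sham 2 and the uninjured library. In injured 1, 2 and 3 it was 2.98, 0.10 and 0.53, so that every injured library lay above every non-injured one. This ratio was chosen after values had been seen and is given as a description. It came to nearly the same value in 3 libraries in which Nt5e itself ranged from 174 to 514 CPM.

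Abcc6, the transporter whose loss causes ectopic calcification, was not detected in 5 of the 6 libraries. It had 21 counts in injured 3, or 0.450 CPM, and 0 counts in each of the others, where 3 counts, the limit that a count of 0 allows, would be 0.0495 to 0.0828 CPM. On the group means the injured level was at least 3.66-fold above sham control, set against 3 counts over both sham libraries. That bound covers counting error only and rests on 1 library, in which the largest number of genes was detected (17281). The fitted fold is not given because it depends on the prior count.

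**Figure D2:**
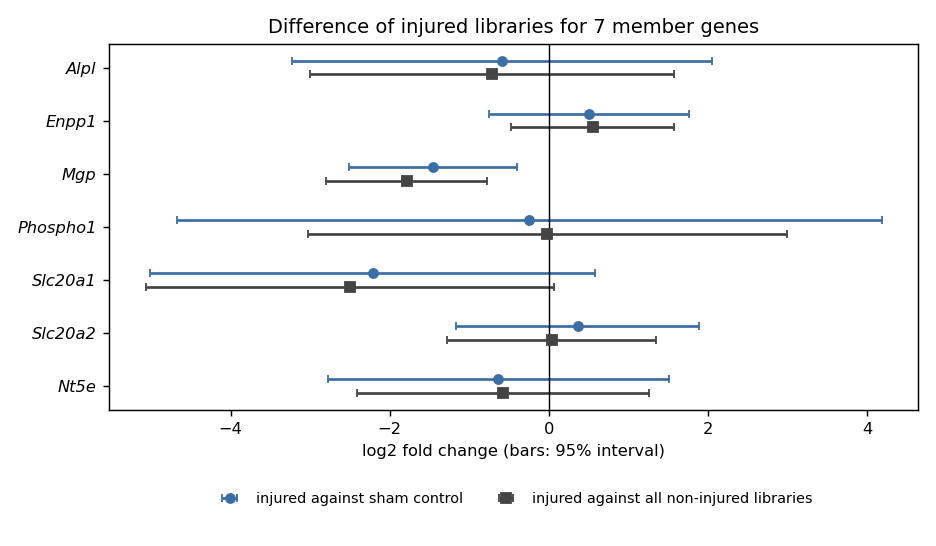
Log2 fold change of injured libraries for 7 members, against sham control (circles) and against all non-injured libraries (squares), with 95% intervals from the fits by edgeR. The intervals of Mgp lie below 0 and the others cross 0, before any adjustment for the number of genes tested; Abcc6 is left out because it had no count in sham control.

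Levels were also ordered between genes as CPM per kilobase of the longest coding transcript in GENCODE M21, with the mean and SD over the 6 libraries. Mgp was highest at 1078 ± 783 CPM per kb (SD, n = 6), above Alpl (149 ± 121) in 6 of 6 libraries. Nt5e (69.1 ± 41.5), Slc20a1 (64.8 ± 70.4) and Enpp1 (43.7 ± 15.7) followed, with means that lay within each other's spread over the 6 libraries. Alpl exceeded Nt5e in 4 libraries, Nt5e exceeded Slc20a1 in 4, and Slc20a1 exceeded Enpp1 in 3. Those 3 were the non-injured libraries, at 21.2, 160.4 and 149 CPM per kb of Slc20a1 against 18.6, 55.0 and 32.7 of Enpp1. In injured 1, 2 and 3 Slc20a1 was the lower, at 1.78, 31.9 and 24.98 CPM per kb against 43.7, 60.8 and 51.5. Slc20a2 (6.67 ± 2.52), Phospho1 (0.711 ± 0.373) and Abcc6 (0.0151 ± 0.0369) came last, and each stood below its upper neighbour in 6 of 6 libraries. The order of the means was the same with the median length of the coding transcripts in place of the longest. The order within single libraries was not always the same, and by the median length Alpl lay above Mgp in injured 3. With the median length Slc20a1 lay below Enpp1 in sham 1, so its split by group depends on the length used. Slc20a2 then lay above Enpp1 in the uninjured library and, narrowly, in injured 1.

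The pattern of each member over the 6 libraries was compared with that of every tested gene, by the root mean square difference of log2(CPM + 1) after each gene was centred on its mean. Nearest to Mgp were Mill2 (0.17) and Plpp3 (0.20), a lipid phosphate phosphatase that stood at 472 and 526 CPM in sham control, 978 CPM in the uninjured library and 162 to 259 CPM in injured libraries. Enpp1 was nearest to Tmem33 (0.09) and Sephs1 (0.10), and among the genes near Nt5e was Cmya5 (0.15). Slc20a2 was nearest to Pgap3 and Rsl1 (0.11 each). Alpl and Slc20a1, the members of widest range, had no gene as close, whereas Nt5e ranged nearly as widely as Alpl and did. Alpl was nearest to Glis1 (0.32) and Slitrk6 (0.37), and Slc20a1 to Rasd1 (0.49), a small G protein, and the deiodinase Dio2 (0.60). Phospho1 was nearest to Snhg11 (0.12) and Grik4 (0.15), and Abcc6 to Nmur1 and Itih4 (both 0), genes that stood below 1 CPM in every library.

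Alpl was also read beside Ibsp, bone sialoprotein, a matrix protein of mineralizing tissue. The log2 ratio of their counts was -2.67, -2.71 and -2.55 in sham 1, sham 2 and the uninjured library. Injured 2 and 3 gave -3.28 and -2.69, whereas injured 1 stood at -0.89. Ibsp itself stood at 360 and 5250 CPM in sham 1 and 2, 3184 CPM in the uninjured library, and 357, 859 and 3706 CPM in injured 1, 2 and 3. The libraries with the lowest Ibsp were thus the pair rich in neutrophil markers and ribosomal RNA, and their part in the level of Alpl was not tested. The osteoblast genes Sp7 and Dmp1 were at 0 in sham 1, which also had the lowest Alpl.

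**Figure D3:**
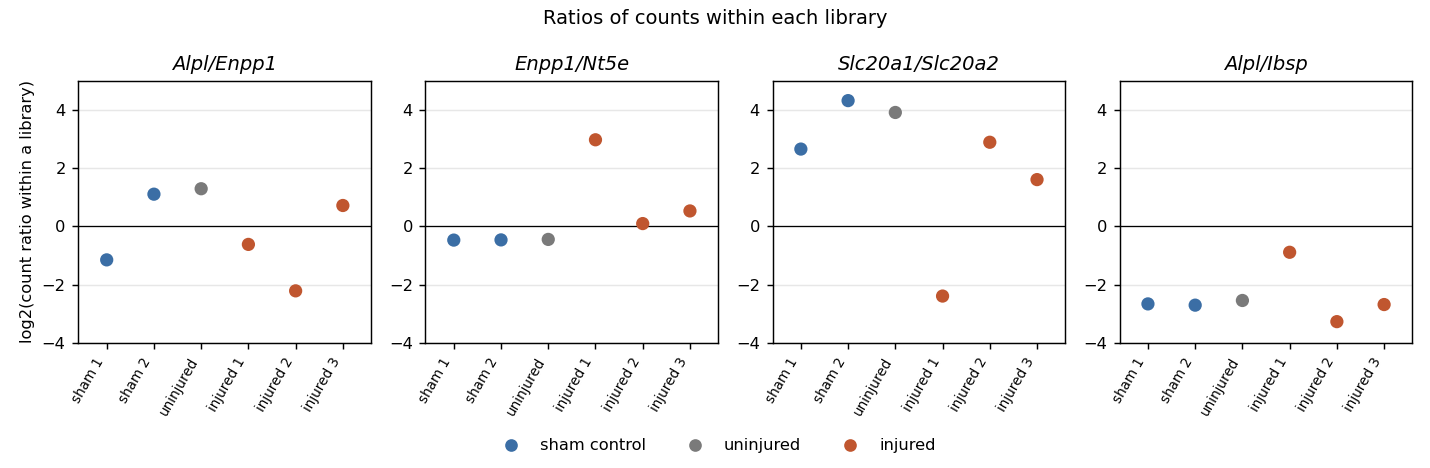
Log2 ratio of the counts of 2 genes within each library, coloured by group, with the line at 0 marking equal counts. The Enpp1 to Nt5e ratio lies between -0.47 and -0.45 in the 3 non-injured libraries and higher in each injured library, whereas the Alpl to Enpp1 ratio overlaps between groups.

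Other genes of mineral control were described by 5 lists of 48 genes in all, of which 44 passed the low-count filter against sham control. Of these 23 had a log2 fold change above 0 and 21 below 0, with a median of 0.12 beside 0.09 for all genes. By edgeR none passed after adjustment and 8 had an unadjusted p under 0.05, of which 3 were higher in injured libraries (2.44% of all genes tested) and 5 lower (2.2%). DESeq2 called 5, all higher (Ppa1, Panx3, Phex, Smpd3 and Sost), beside 2.2% of all genes, 240 of them higher and 129 lower. Of the 5, Phex and Sost had counts in 1 library each. No list gene passed by limma-voom. For 4 genes (Ppa1, Panx3, Smpd3 and Anxa2) each injured library exceeded both sham controls, and for 4 (Entpd2, Adora2a, Fam20c and Fetub) each was below them. Among all genes tested those shares were 11.9% and 9.13%. In the comparison with all non-injured libraries 40 were tested, 18 above 0 and 22 below, with a median of -0.17 beside 0.00 for all genes. There 4 were higher and 4 lower at an unadjusted p under 0.05 (3.71% and 3.72% of all genes), 4 lay wholly above and 2 wholly below (9.23% and 7.07%). DESeq2 called 7 (2.45% of all genes), of which Ppa1, Panx3 and Smpd3 were higher and Entpd2, Fam20c, Bglap and Bglap2 lower.

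In the list of pyrophosphate, nucleotide and adenosine handling (13 genes, all tested, 7 above 0 and 6 below), 2 genes were higher and 2 lower at an unadjusted p under 0.05. Ppa1, the cytosolic pyrophosphatase, stood at 56.1 and 68.5 CPM in sham control, 40.8 CPM in the uninjured library, and 216, 198 and 390 CPM in injured 1, 2 and 3. All injured libraries were above all others, and the log2 fold change was 2.10 ± 0.47 (SE, adjusted p = 0.865 by edgeR), the same with sham 1 and injured 1 both left out. Panx3, a pannexin channel of cartilage and bone that releases ATP, the substrate of Enpp1, stood at 0.0270 and 0.608 CPM in sham 1 and 2, 0.170 CPM in the uninjured library, and 33.9, 75.4 and 270 CPM in injured 1, 2 and 3. No injured library came near the others, and the log2 fold change was 8.63 ± 1.69 (SE, adjusted p = 0.865 by edgeR, 3.28e-10 by DESeq2), a size that depends on the few sham counts. Entpd2, an ectoenzyme that degrades ATP before Enpp1 can use it, stood at 245 and 167 CPM in sham control, 213 CPM in the uninjured library, and 106, 33.6 and 28.1 CPM in injured 1, 2 and 3. The non-injured libraries all lay above the injured ones, and the log2 fold change was -1.88 ± 0.63 (SE, unadjusted p = 0.0213), and it was -2.44 with sham 1 and injured 1 both left out and -1.58 with an unadjusted p of 0.0878 without sham 1. Adora2a, an adenosine receptor, was detected in both sham libraries at 6.08 and 1.13 CPM, in injured 3 at 0.0856 CPM and in no other library. It had an unadjusted p of 0.0494 by edgeR, and without sham 1 and injured 1 that was 0.254. Markers of cartilage overlapped between groups as a list, at 1525 and 20063 CPM in sham control, 1547 CPM in the uninjured library and 7680 to 50423 CPM in injured libraries, and its genes differed in direction. Col9a1, Matn3 and Cnmd were higher in every injured library than in every other. Sox9, the regulator of the chondrocyte lineage, stood at 150 and 1095 CPM in sham control, 588 CPM in the uninjured library and 84.3, 140 and 423 CPM in injured libraries, and Col10a1 overlapped between the groups. The part of cartilage cells in the levels of Panx3 and Ppa1 was not tested.

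In the list of phosphate transport and its regulation, 7 of 10 genes were tested and Slc34a2, Fgf23 and Kl had no count in any library. Fam20c, the kinase that phosphorylates secreted matrix proteins, stood at 84.0 and 74.5 CPM in sham control, 75.4 CPM in the uninjured library, and 39.2, 36.0 and 43.6 CPM in injured 1, 2 and 3. Its groups were narrow and did not overlap, and the log2 fold change was -1.0 ± 0.36 (SE, unadjusted p = 0.0285 and adjusted p = 0.865 by edgeR). It was -0.91 with an unadjusted p of 0.0667 with sham 1 and injured 1 both left out. Phex, an endopeptidase of osteocytes called by DESeq2, had counts in injured 3 alone, at 6.23 CPM. Its mean over the injured group, 2.08 CPM, was at least 50.7-fold above 3 counts over both sham libraries. That bound covers counting error only and rests on 1 library. Galnt3 and Stc1 also reached their highest levels, 14.0 and 2.06 CPM, in injured 3. The list had 4 genes above 0 and 3 below.

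Among 10 genes of matrix vesicles and crystal formation, all tested, 6 had a log2 fold change above 0 and 4 below. Smpd3, neutral sphingomyelinase 2, whose loss impairs skeletal mineralization, stood at 24 and 67.2 CPM in sham control, 52.9 CPM in the uninjured library, and 239, 111 and 870 CPM in injured 1, 2 and 3. Every injured library was above every other. The difference was 3.16 ± 1.01 log2 units (SE, adjusted p = 0.865 by edgeR and 0.0263 by DESeq2), and 1.93 without injured 3. Without sham 1 it was 2.60 with an unadjusted p of 0.0922 by edgeR. Annexin A2 (Anxa2), a calcium-binding protein of matrix vesicles, was also above both sham libraries in each injured one, at 1652 and 1367 CPM against 3037, 2343 and 1783 CPM, with an unadjusted p of 0.223. Anxa1 (log2 fold change -0.48 ± 0.42, SE) and the carbonic anhydrase Car2, at 20.4 and 0 CPM in sham control and 0.257 to 4.48 CPM in injured libraries, overlapped between the groups.

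The Gla proteins, to which Mgp belongs, carry glutamates modified with the help of vitamin K, and of 8 genes tested for them and the vitamin K cycle 4 were above 0 and 4 below. Osteocalcin (Bglap), the Gla protein of bone, stood at 36.5 and 327 CPM in sham control, 514 CPM in the uninjured library, and 23.8, 13.3 and 49.6 CPM in injured 1, 2 and 3. Sham 1 lay among the injured libraries. The log2 fold change was -2.65 ± 0.92 (SE, edgeR unadjusted p = 0.0242), and it was -0.33 without sham 2. The near-identical copy Bglap2 gave -2.49 ± 0.87 (SE), and reads of the 2 copies cannot be told apart with certainty. Ucma, the Gla-rich protein of cartilage, stood at 9.57 and 3.78 CPM in sham control and 40.8, 7.2 and 51.7 CPM in injured libraries, opposite in direction to Mgp but with overlapping groups (log2 fold change 2.32 ± 1.00, SE, unadjusted p = 0.0546). Vkorc1, the reductase that recycles vitamin K, differed by 0.54 ± 0.43 log2 units (SE).

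Of the secreted inhibitors of mineralization, 6 of 7 genes were tested, with 2 above 0 and 4 below and a median log2 fold change of -1.58. By edgeR none had an unadjusted p under 0.05, and DESeq2 called Sost, which had counts in injured 2 alone, at 2.18 CPM. Its mean over the injured group, 0.727 CPM, was at least 17.7-fold above 3 counts over both sham libraries. That bound too covers counting error only and rests on 1 library. Osteopontin (Spp1) stood at 2932 and 16801 CPM in sham control, 7121 CPM in the uninjured library, and 794, 4340 and 2436 CPM in injured 1, 2 and 3 (log2 fold change -1.97 ± 0.98, SE, unadjusted p = 0.0850). Osteoprotegerin (Tnfrsf11b), the decoy receptor for RANKL, stood at 78.6 and 1187 CPM in sham control, 704 CPM in the uninjured library, and 0.0679, 124 and 130.2 CPM in injured 1, 2 and 3. Without sham 2 the log2 fold change against sham control was -0.22 for Spp1 and 0.11 for Tnfrsf11b, and without sham 1 it was -2.74 and -3.81. Like Slc20a1, both were lower in every injured library than in sham 2 and overlapped with sham 1. Thbs1 differed by 0.75 ± 0.49 log2 units (SE).

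**Figure D4:**
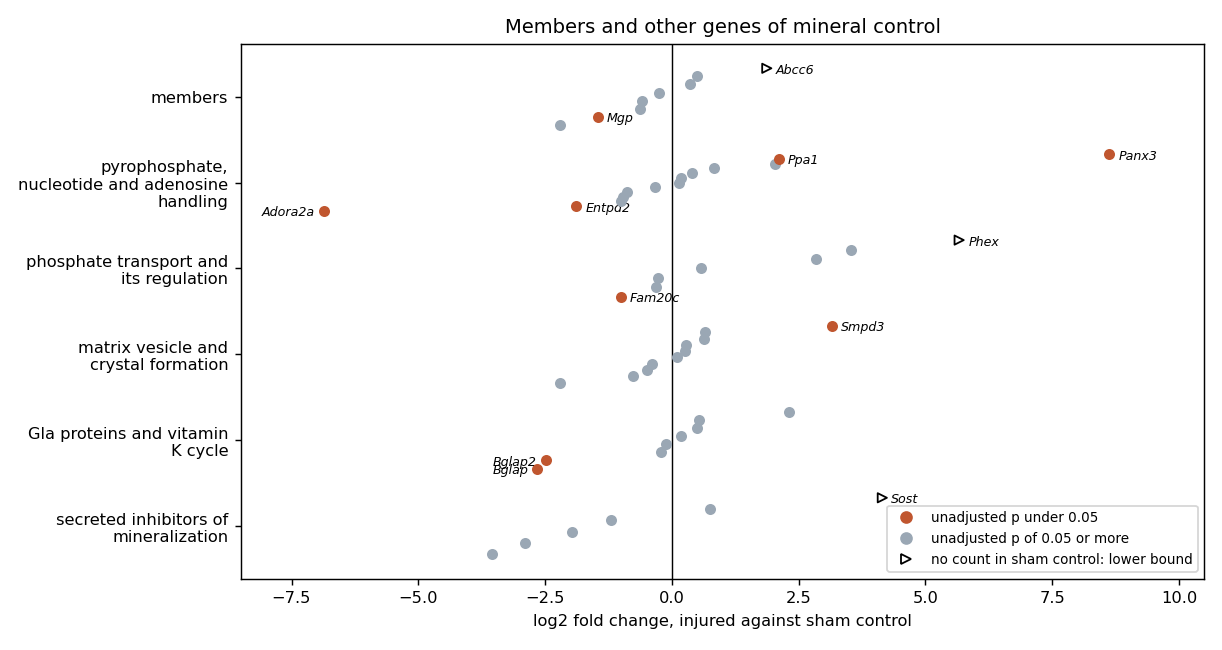
Log2 fold change of injured against sham control for the members and for 5 lists of other genes of mineral control, 1 point a gene. Orange points had an unadjusted p under 0.05 and grey points did not, none passed adjustment by edgeR, and open triangles mark lower bounds for genes with no count in sham control. Among the members Mgp is the orange point, and the grey point to its left is Slc20a1.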

How the data were processed

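RNA of sorted cells (150 pg per library, per the labels' protocols) was amplified with a SMARTer low-input kit and sequenced. The deposited table holds whole-number counts per gene symbol, and the authors' scaling, if any, is not recorded. The submitters' processing notes name Salmon (0.12.0), DESeq, DESeq2 (1.22.2) and the builds GRCm38.p6 and mm9, with no role for either build. All 6 columns were used, with totals of 37506188 to 51089267 counts. Reads carry no molecular identifiers, so limits from counts cover counting error only.

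Genes were kept by filterByExpr (minimum count 10), scaled by TMM and tested with edgeR 4.0.16 under R 4.3.3 (glmQLFTest). Adjusted p-values followed Benjamini and Hochberg across every gene kept, with a threshold of 0.05. The first comparison fitted 3 groups and the second 2, leaving 3 and 4 residual degrees of freedom. Standard errors and 95% intervals were derived from the F statistic. DESeq2 1.42.0 and limma-voom (limma 3.58.1) were alternatives, with other scalings, no filter, a replicate block and libraries left out. The procedure was tested on simulated data. The members, 5 lists and marker lists were chosen with earlier results of these data known. Besides the members, each list is shown by its 4 lowest p-values in the first comparison, and each member by the 2 genes nearest to it in pattern, of which 1 is not reported here. Other genes were named after their values were seen, and the ratios were chosen likewise.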

Additional observations from a re-analysis of the deposited data

How the results depend on the processing

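Groups of at most 3 libraries limit the precision of each member, and Abcc6, with 21 counts in 1 library, is also limited by counting error. Genes past the adjusted threshold against sham control numbered 0 by edgeR, 369 by DESeq2, 1 by limma-voom and 3 without a filter on low counts. Those against all non-injured libraries numbered 0, 345, 7 and 5. Members past it numbered 1 by DESeq2 in each comparison and 0 otherwise. Members with an unadjusted p under 0.05 numbered 1, but 2 against sham control by DESeq2, with a replicate block and without sham 1 and injured 1. In the other comparison they were also 2 in those settings, by limma-voom, with relative log expression scaling and without a filter. Leaving out 1 library gave 1 to 2 in each comparison. Library size alone moved the median of all genes against sham control from 0.09 to 0.23. Mgp stayed below 0 in each setting. Without sham 1 and injured 1 the log2 fold change against sham control was 0.38 for Phospho1, -0.36 for Slc20a2, -0.0020 for Vkorc1 and 8.62 for Car2, and against all non-injured libraries 0.58, -0.52 and 8.62 for Phospho1, Slc20a2 and Car2. Phospho1 was 0.040 with library size alone, and Slc20a2 was -0.00071 by DESeq2 and -0.00059 with relative log expression scaling. Galnt3 was -1.06 and -2.07 and Car2 1.3 and 3.15 by limma-voom in the 2 comparisons. Leaving out 1 library against sham control moved Alpl from -1.61 to 2.33, Enpp1 from -0.079 to 1.49, Phospho1 from -1.02 to 0.19, Slc20a2 from -0.13 to 1.12, Nt5e from -1.27 to 0.35, Tnfrsf11b from -3.81 to 0.11, Galnt3 from -7.81 to 7.30 and Car2 from -3.26 to 9.66. Against all non-injured libraries the ranges were -0.79 to 0.39 for Phospho1, -0.29 to 0.36 for Slc20a2, -8.39 to 2.91 for Galnt3 and -2.67 to 9.66 for Car2. Car2 had no count in sham 2 and the uninjured library, and Galnt3 had none in injured 1 and 2. The values of 8.62 and 9.66 for Car2 and of -7.81 and -8.39 for Galnt3 had only such libraries on a side. Their size therefore depends on the prior count. The causes were not tested. Only 2 replicate numbers are shared by sham control and injured, and the labels do not say what they mark. Deviations of same-numbered libraries correlated at 0.24 across 16752 genes, which are not independent replicates. With the replicate block Slc20a1 was -2.95 (edgeR adjusted p = 0.924) and Mgp -1.32 against sham control, Galnt3 -7.47 and -7.48, and Car2 2.20 in both comparisons. In the injured libraries that share a number with sham control Galnt3 had no count, so its size there depends on the prior count too.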
